A study of Homo sapiens with 12 samples.

Results

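The response of VHL-negative RCC4 cells to the BET bromodomain inhibitor JQ1 was followed across all expressed genes. Its members were the 6 libraries that the labels name VHL-negative, 3 under DMSO and 3 under 5 µM JQ1, of 12 libraries in the whole series. RCC4 is a human clear cell renal cell carcinoma line. By the submitters' labels the VHL-negative cells have lost VHL, and the VHL-positive cells are the same line with VHL put back. Both were kept in high-glucose DMEM with serum and geneticin, so every group carried that selection drug, and DMSO was the solvent control. RNA was total RNA treated with DNase and depleted of ribosomal RNA. Nothing in the labels describes how VHL was put back, whether the lines are clones, or how long treatment lasted. Replicates may be separate cultures or repeat preparations, and p-values then cover only the spread between these samples, which may be technical. Cells with a short hairpin against MYC are mentioned in the protocol and were not analysed here.

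VHL is part of a ubiquitin ligase that marks the hypoxia-inducible factors HIF1A and EPAS1 for degradation, and its loss in clear cell carcinoma leaves their targets on at normal oxygen. The cancer is named for cytoplasm cleared by stored lipid and glycogen. JQ1 occupies the acetyl-lysine pocket of the BET proteins, BRD2 and BRD3 among them, and displaces them from chromatin, where they read acetylated histones and promote elongation by RNA polymerase. Many genes near strong enhancers depend on this step. MYC is the best known in blood cancers, and the labels call JQ1 a MYC inhibitor.

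The level of VHL, the gene put back in VHL-positive cells, set the lines apart. VHL measured 24.9, 28.2 and 26.2 CPM under DMSO and 35.2, 32.4 and 30.5 CPM under JQ1 in VHL-negative cells, against 67.3, 64.6 and 78.9 CPM under DMSO and 219.7, 196 and 221 CPM under JQ1 in VHL-positive cells. CPM are read counts scaled to library size (TMM), and ± after a log2 value gives its SE. A log2 change printed without a p passed at an adjusted p under 0.05 unless the sentence says that it did not. All 6 VHL-negative libraries lay below all 6 VHL-positive ones. The renal factor PAX8 ran from 267 to 608 CPM without TMM scaling, NDUFA4L2, a HIF target of clear cell carcinoma, from 209 to 367, and VIM from 1455 to 1626. LRP2, the proximal tubule receptor megalin, had at most 3 counts in a library. Among other cell types' markers, CD3E and DCN had 0 counts in every library and PTPRC, PECAM1, CDH5, VWF and LUM at most 5. Others were detected, with ESAM at 119 to 168 counts, ACTA2 at 72 to 136 and MYH11 at 53 to 122. CSF1R ran from 14 to 122 counts and PDGFRB from 11 to 219. Of 7 endothelial, 8 leukocyte and 7 fibroblast and smooth muscle markers, 2, 3 and 4 passed the filter on low counts. Their summed levels under DMSO and JQ1 were 5.13 to 5.98 and 6.22 to 12.2 CPM for the endothelial markers, 3.66 to 5.05 and 1.03 to 1.90 CPM for the leukocyte markers, and 12.5 to 18.5 and 8.00 to 13.8 CPM for the last list. In bulk RNA, fewer cells of a type and less RNA per cell cannot be told apart.

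Total counts were 29029970, 30086128 and 24624980 for the DMSO libraries and 30458147, 15452949 and 24383054 for the JQ1 libraries, in replicate order. Mitochondrial genes took 9.90 to 25.3% of counts under DMSO, with the first library at the top, and 15.6 to 17.1% under JQ1. The third JQ1 library resembled a mixture of the other JQ1 libraries. It lay between them in 75.9% of 11219 genes with enough counts, and in 99% of the 2169 genes in which they differed by 1.5-fold or more. These shares were also high for the second DMSO library within its group, at 59.4 and 88.1%. A mix of 46% of the first and 54% of the second JQ1 library left a variance over counting noise of 1.79 for the third. For the other 5 libraries, each fitted by the other libraries of its group, this ratio ran from 6.69 to 33.9. In the JQ1 libraries of VHL-positive cells it was 3.80, 4.89 and 2.36, lowest in the third. The cause was not tested, and counts are therefore given with and without the third JQ1 libraries of both lines. The plot of summed levels by library shows how the gene classes named below move with single libraries.

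**Figure D1:**
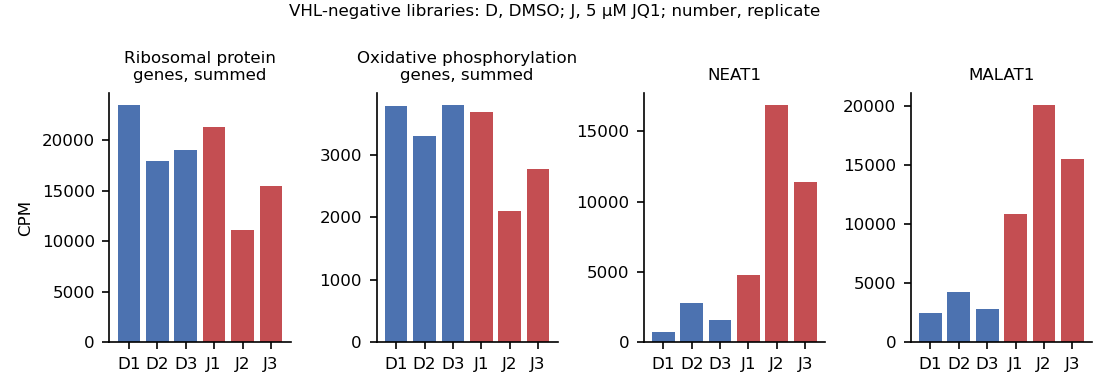
Each bar is 1 VHL-negative library (D, DMSO; J, 5 µM JQ1; number, replicate), and the vertical axes give CPM, summed over the tested ribosomal protein genes and respiratory chain genes and for the single RNAs NEAT1 and MALAT1. The third JQ1 library stands between the first and the second in all 4 panels, and NEAT1 reaches 16880 CPM in the second against 4771 CPM in the first.

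JQ1 changed 6649 expressed genes, 32.1% of those tested. Of 20714 genes tested, 3032 rose (14.6%) and 3617 fell (17.5%) at an adjusted p under 0.05, and 1414 (6.83%) rose and 1482 (7.15%) fell by 2-fold or more. Without the third JQ1 libraries 1725 rose (7.98%) and 2232 fell (10.3%) of 21623. Counts in the gene lists below are to be set beside these shares, which dropped over all genes with fewer libraries. The JQ1 and DMSO libraries did not overlap in 8923 of the genes tested (43.1%), so a lack of overlap reported below is common. The median log2 change over all genes tested was 0.03. Protein-coding genes leaned to falls, with 15.02% rising, 22.6% falling and a median of -0.07. Lists of protein-coding genes are to be set beside these shares as well. Medians were above 0 for antisense RNAs (0.27), sense intronic RNAs (0.35) and processed pseudogenes (0.44), although 12.9, 13.7 and 12.8% of these classes were called as risen, each below the share over all genes, and 6.92, 3.41 and 3.00% as fallen. Long noncoding RNA as a whole took 1.45 to 2.31% of counts under DMSO and 2.74 to 5.92% under JQ1. Processed pseudogenes took 0.0936 to 0.147% under DMSO and 0.114, 0.204 and 0.162% under JQ1, so that the first JQ1 library lay within the controls. Whether counting used strand is not stated, so reads of antisense RNAs and of the genes they face cannot be told apart.

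The largest falls included secreted and membrane proteins. TM4SF18, a membrane protein of the tetraspanin-like L6 family, measured 77.7, 74.8 and 89.4 CPM under DMSO and 4.34, 3.22 and 4.00 CPM under JQ1 (log2 -4.37 ± 0.18, adjusted p = 3.98e-10). TRIM55, a muscle ubiquitin ligase that binds microtubules, measured 98, 97.4 and 112 CPM under DMSO and 10.2, 6.61 and 8.47 CPM under JQ1 (log2 -3.59). CRISPLD2, a secreted cysteine-rich protein, stood at 372, 309 and 295 CPM under DMSO and 52.2, 41.5 and 47.7 CPM under JQ1 (log2 -2.79). Every JQ1 library lay below every DMSO library in these genes, but this separation was a condition for choosing the largest falls and rises. CYP1B1, an oxidase of steroids and xenobiotics, measured 109, 103 and 141 CPM under DMSO and 20.2, 17.5 and 16.5 CPM under JQ1. KCTD15, a BTB-domain adaptor, and CP, the copper-carrying ferroxidase ceruloplasmin, fell too (log2 -2.42 and -2.52). IGFBP3, which binds insulin-like growth factors and is a HIF target, measured 588, 446 and 533 CPM under DMSO and 99.9, 71.5 and 79.6 CPM under JQ1 (log2 -2.64).

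Several of the largest rises were in genes with low control levels. VGF, a precursor of secreted peptides, measured 9.29, 10.4 and 7.60 CPM under DMSO and 40.1, 45.6 and 43.9 CPM under JQ1 (log2 2.24 ± 0.17, adjusted p = 2.1e-07). NANOS1, an RNA-binding translational repressor, measured 8.29, 8.14 and 7.75 CPM under DMSO and 35.6, 28.3 and 32 CPM under JQ1 (log2 1.99). BAHCC1, a reader of histone methylation, measured 10.6, 14.3 and 9.56 CPM under DMSO and 31.2, 62.7 and 50.1 CPM under JQ1 (log2 2.06). Separation of the groups was again a condition of their choice, and the JQ1 libraries of BAHCC1 spread widest. Among abundant RNAs PEG10, a domesticated retrotransposon capsid gene, went from 2903, 2160.1 and 2202 CPM to 5449, 5401 and 5164 CPM (log2 1.14). CBX5, which encodes the heterochromatin protein HP1 alpha, measured 283, 248.6 and 285 CPM under DMSO and 437, 728 and 576 CPM under JQ1 (log2 1.09).

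**Figure D2:**
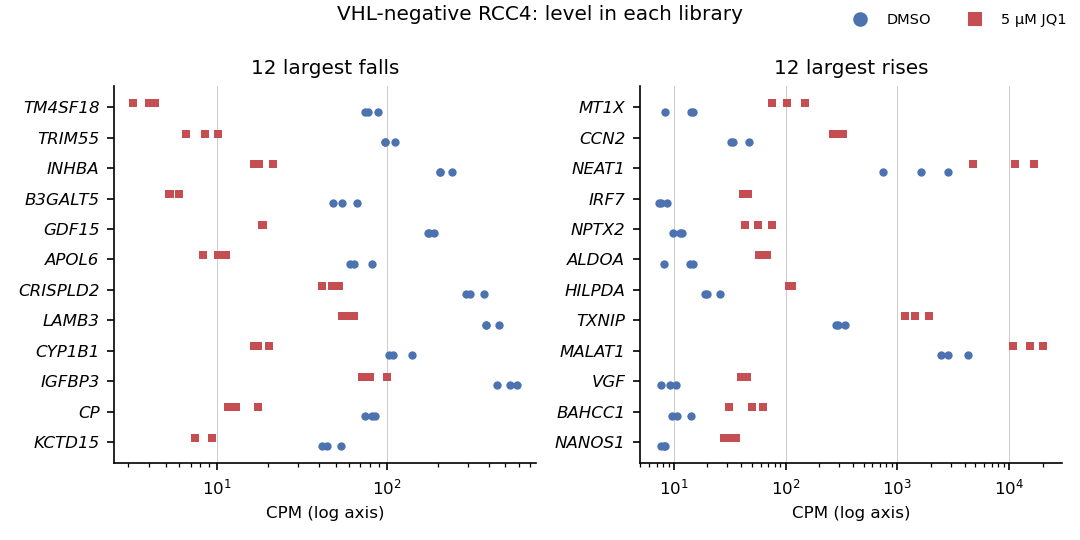
Each point is the level of a gene in 1 library, in CPM on a log axis, for the 12 largest falls and the 12 largest rises at a mean log2 CPM of at least 4, called and without overlap. Circles are the 3 DMSO and squares the 3 JQ1 libraries, and the gap between them is part of how the genes were chosen.

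The BET genes and the P-TEFb machinery were examined first among the gene lists, since they are the target. BRD2 measured 240.2, 198 and 158 CPM under DMSO and 594, 502 and 518 CPM under JQ1 and rose in every JQ1 library (log2 1.44 ± 0.18, adjusted p = 2.66e-05). HEXIM1, which holds P-TEFb, the kinase complex that releases paused polymerase, inactive in a complex with a small nuclear RNA and is a known readout of BET inhibition, measured 71.2, 68.1 and 63.9 CPM under DMSO and 185, 177 and 184 CPM under JQ1 (log2 1.43 ± 0.13, adjusted p = 8.21e-07). The groups did not overlap in either gene. BRD3 did not pass (log2 0.22, adjusted p = 0.248). NELFA, a subunit of the pausing factor NELF, and ELL2, part of the super elongation complex, fell (log2 -0.86 and -0.70). In all, 4 of 24 tested members rose and 2 fell (median log2 0.13, against 0.03 over all genes). These are 16.7 and 8.33%, near and below the 14.6 and 17.5% over all genes, and without the third JQ1 libraries 2 rose and 2 fell.

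MYC, the growth-promoting transcription factor, measured 439, 305 and 283 CPM under DMSO and 189, 131 and 160.2 CPM under JQ1, with every JQ1 library below every control (log2 -1.10, adjusted p = 0.000869). In the network of proteins that share its partner MAX, 3 of 11 tested members rose and 2 fell (median log2 0.14, but -0.15 without the first and -0.02 without the second JQ1 library). MXD1 and MXD3, partners of MAX that repress MYC sites, rose by 1.09 and 0.76 on the log2 scale. Without the third JQ1 libraries 2 rose and 1 fell. Among 51 tested MYC targets 18 fell and 1 rose (median log2 -0.34). The falls were 35.3%, against 17.5% over all genes and 22.6% of protein-coding genes. Without the third JQ1 libraries 8 fell and 1 rose, in a fit where 10.3% of all genes fell. Whether these falls followed that of MYC was not tested. The falls included CCND2, cyclin D2 (30.6, 21.4 and 23.1 CPM under DMSO and 13.8, 11.1 and 11 CPM under JQ1, log2 -1.06), and NME1, a nucleoside diphosphate kinase (log2 -1.32). Also lower were GART, a purine synthesis enzyme, PRMT3, a methylase of ribosomal protein, and UTP20, a ribosome assembly factor (log2 -0.78, -0.83 and -0.78). The riser was LDHA, lactate dehydrogenase, which is also a HIF target and measured 2052, 1790.2 and 1650.02 CPM under DMSO and 4897, 3039 and 3732 CPM under JQ1 (log2 1.09). Every JQ1 library of LDHA lay above the DMSO libraries.

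More HIF pathway genes rose than fell, while 10 of 14 tested were not called. HIF1A measured 139, 127 and 115 CPM under DMSO and 213, 235 and 218 CPM under JQ1 (log2 0.81 ± 0.13, adjusted p = 0.000208), without overlap of the groups. HIF1AN, the asparagine hydroxylase that curbs HIF activity, rose by 0.52. EPAS1, which encodes HIF2 alpha, the main oncogenic HIF of this cancer, measured 169, 145 and 138 CPM under DMSO and 226, 211 and 219 CPM under JQ1 (log2 0.54, adjusted p = 0.00781), and without the third JQ1 libraries its adjusted p was 0.0531. Altogether 4 of 14 tested pathway factors rose and 0 fell (median log2 0.24). The rises were 28.6%, against 14.6% over all genes. Without the third JQ1 libraries 2 rose and 0 fell, in a fit where 7.98% of all genes rose.

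HIF targets moved in both directions. Of 43 tested, 15 rose and 7 fell (34.9 and 16.3%, against 14.6 and 17.5% over all genes). Their median log2 was 0.21, and without the third JQ1 libraries 11 rose and 7 fell. HILPDA (chromosome 7, 128455849 to 128458418 on GRCh38), which inhibits the triglyceride lipase PNPLA2 and so protects lipid droplets, measured 19.8, 25.9 and 19 CPM under DMSO and 114, 108 and 108 CPM under JQ1 (log2 2.35 ± 0.13, adjusted p = 1.23e-08). Its 3 JQ1 libraries were close together and far above the controls. ADM, the vasodilator peptide adrenomedullin, measured 145, 159 and 140.5 CPM under DMSO and 639, 459.97 and 524 CPM under JQ1 (log2 1.87), PFKFB3, the enzyme that makes the activator of phosphofructokinase, 295, 327 and 275 CPM under DMSO and 607, 538 and 571 CPM under JQ1 (log2 0.94), and BNIP3, a mitophagy receptor, rose by 0.91. Targets that fell included the following genes. CA9, the cell-surface carbonic anhydrase that marks clear cell carcinoma, measured 97.8, 75.8 and 77 CPM under DMSO and 34.2, 24.1 and 26.1 CPM under JQ1 (log2 -1.57 ± 0.26, adjusted p = 0.000269). LOX, which crosslinks collagen, measured 71.3, 69.3 and 82.2 CPM under DMSO and 26.5, 20.1 and 25.6 CPM under JQ1 (log2 -1.62), and PLIN2, the main coat protein of lipid droplets, 208, 164 and 141 CPM under DMSO and 117, 65.9 and 88 CPM under JQ1 (log2 -0.92). In CA9, LOX and PLIN2 all JQ1 libraries lay below all controls. CA9 shares 38.5% of its exon bases with other annotated genes. SLC2A1, a major glucose transporter, did not pass (log2 0.16, adjusted p = 0.476), while SLC2A3 rose by 0.74. VEGFA measured 157, 173 and 147 CPM under DMSO and 211, 237 and 226 CPM under JQ1 and did not pass (log2 0.50, adjusted p = 0.0614); it passed in a fit of protein-coding genes only (adjusted p = 0.0264) and in 4 other settings.

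The promoter of CA9 is printed because this gene fell while more HIF targets rose than fell. It comes from RefSeq on GRCh38.p14, plus strand, chr9:35673678-35673927, with capitals marking the hypoxia response core (ACGTG or GCGTG, both strands), which 43.1% of 27305 RefSeq promoters of this length hold.
CA9: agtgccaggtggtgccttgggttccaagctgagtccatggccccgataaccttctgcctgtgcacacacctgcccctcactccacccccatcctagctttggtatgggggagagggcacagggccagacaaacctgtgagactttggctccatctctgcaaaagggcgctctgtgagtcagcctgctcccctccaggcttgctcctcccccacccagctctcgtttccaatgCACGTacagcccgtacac
It held 1 match, a few bases before the start site. A core of this length is frequent, and the match is a description and not a binding site. HILPDA was not matched in the promoter table.

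Glycolysis was the list with the highest share of rises among the metabolic lists. Of 28 tested genes 15 rose and 2 fell (median log2 0.43), and without the third JQ1 libraries 12 rose and 1 fell. GAPDH measured 3261, 2538 and 2278 CPM under DMSO and 9856, 5392 and 6969.8 CPM under JQ1 (log2 1.46), ENO1, enolase, 2442, 2249.9 and 2127 CPM under DMSO and 4274, 2827 and 3445 CPM under JQ1 (log2 0.63), and PGK1, phosphoglycerate kinase, 1597, 1816 and 2011 CPM under DMSO and 3787, 2465 and 3041 CPM under JQ1 (log2 0.78). In these 3 genes the first JQ1 library was highest, the second lowest of the JQ1 group, and all exceeded the controls. GAPDH, ENO1 and PGK1 have processed copies elsewhere in the genome, so reads may be split. The aldolase ALDOC rose by 1.23, the lactate exporter SLC16A3 by 0.67 and PDK2, a kinase that blocks pyruvate entry into the mitochondrial cycle, by 2.03 on the log2 scale. The muscle-type phosphofructokinase PFKM fell by 0.60.

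Lipid genes moved in both directions. Of 18 tested lipid droplet genes 3 rose and 6 fell. These are 16.7 and 33.3%, against 14.6 and 17.5% over all genes and 15.02 and 22.6% over protein-coding genes. The median log2 of the list was -0.23, and without the third JQ1 libraries 2 rose and 4 fell. PNPLA2, the lipase ATGL that opens triglyceride breakdown and is the target of HILPDA, measured 50.2, 38.8 and 32.9 CPM under DMSO and 102, 134 and 118 CPM under JQ1 (log2 1.54 ± 0.19, adjusted p = 1.66e-05). MGLL, which cleaves the last fatty acid from glycerol, measured 372, 304 and 297 CPM under DMSO and 174, 147 and 157 CPM under JQ1 (log2 -1.03). The groups did not overlap in either gene. Of 13 tested triglyceride synthesis genes 1 rose and 6 fell (median log2 -0.36), and without the third JQ1 libraries 1 rose and 4 fell. The riser was DGAT1, which adds the third fatty acid, at 23, 24.6 and 23.9 CPM under DMSO and 81.2, 56.7 and 70.5 CPM under JQ1 (log2 1.55). The early acyltransferases GPAT3 and AGPAT3 were among those that fell (log2 -1.16 and -1.02).

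Few fatty acid synthesis genes passed, with 1 of 16 tested genes up and 2 down (median log2 0.04, also 1 and 2 without the third JQ1 libraries). ACACB, the carboxylase that restrains fatty acid import into mitochondria, rose by 1.22 on the log2 scale, and the elongase ELOVL6 fell by 1.20. In fatty acid uptake 3 of 16 rose and 5 fell. These are 18.75 and 31.25%, against 14.6 and 17.5% over all genes and 15.02 and 22.6% over protein-coding genes. The median log2 was -0.22, and without the third JQ1 libraries 2 rose and 2 fell. Of the acyl-CoA synthetases, which activate fatty acids, ACSL5 measured 10.8, 8.46 and 8.51 CPM under DMSO and 0.820, 0.894 and 0.660 CPM under JQ1 (log2 -3.55), while ACSL1 rose by 0.89. Of 27 tested oxidation genes 6 rose and 4 fell (22.2 and 14.8%, against 14.6 and 17.5% over all genes). Their median log2 was 0.10, and without the third JQ1 libraries 5 rose and 1 fell. ETFDH, which passes electrons from beta-oxidation to the respiratory chain, and the dehydrogenase ACADVL rose by 1.49 and 0.59. In cholesterol synthesis 7 of 24 genes fell (29.2%) and 1 rose (median log2 -0.30; 3 and 1 without the third JQ1 libraries). The sterol enzymes MSMO1 and FDPS fell (log2 -1.05 and -0.68), and the riser was TM7SF2, a sterol reductase, at log2 1.53.

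**Figure D3:**
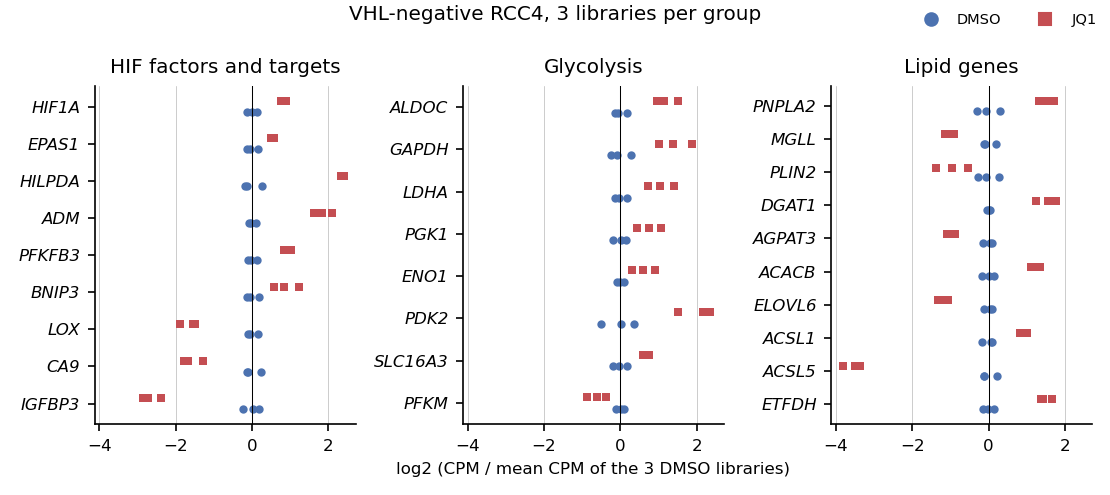
Each point is 1 library, placed by the log2 ratio of its CPM to the mean CPM of the 3 DMSO libraries of the gene, with circles for DMSO and squares for JQ1. HILPDA, ADM and PNPLA2 lie to the right of 0 in all 3 JQ1 libraries, and CA9, LOX and PLIN2 to the left.

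Redox and metal genes held several of the largest rises. TXNIP, which binds thioredoxin and curbs glucose uptake, measured 295, 339 and 284 CPM under DMSO and 1921, 1164 and 1446 CPM under JQ1 (log2 2.30), and the related arrestins ARRDC3 and ARRDC4 rose by 1.01 and 0.95. Among 28 tested NRF2 and thioredoxin genes, TXNIP and ARRDC3 included, 7 rose and 4 fell. These are 25 and 14.3%, against 14.6 and 17.5% over all genes. Their median log2 was 0.13, and without the third JQ1 libraries 7 rose and 3 fell. GCLC, the rate-limiting enzyme of glutathione synthesis, measured 24, 24.6 and 24.5 CPM under DMSO and 60.3, 51.2 and 57.9 CPM under JQ1 (log2 1.21), and TXNRD1, thioredoxin reductase, rose by 0.90. SLC7A11, the cystine importer that feeds glutathione synthesis, went the other way at 35, 42.5 and 73.1 CPM under DMSO and 18, 12.4 and 13.8 CPM under JQ1 (log2 -1.76). HMOX1, haem oxygenase, fell by 0.97. The groups did not overlap in GCLC or SLC7A11. Of 11 tested iron genes 1 rose and 3 fell, with and without the third JQ1 libraries. The riser was FTL, the ferritin light chain, at 1775, 1375 and 1109 CPM under DMSO and 7993, 3565 and 5348 CPM under JQ1 (log2 1.99), which has processed copies that may share reads. STEAP3, an endosomal ferrireductase, fell by 1.31.

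Metallothioneins are small cysteine-rich proteins that bind zinc and copper. Of 5 tested genes, 4 metallothioneins and their regulator MTF1, 3 rose and 0 fell (median log2 1.01; 2 and 0 without the third JQ1 libraries). MTF1 did not pass (log2 0.34, adjusted p = 0.127). This list was added after their values were seen. MT1X measured 14.8, 14.4 and 8.36 CPM under DMSO and 148, 76 and 103 CPM under JQ1 (log2 3.12 ± 0.30, adjusted p = 1.92e-06) and MT2A 529.8, 295 and 186 CPM under DMSO and 1146, 888 and 993 CPM under JQ1 (log2 1.58). All JQ1 libraries exceeded all controls, and the DMSO libraries of MT2A differed among themselves by more than 2-fold. Metallothionein genes lie in a cluster of near-identical copies, so their reads may be split. The promoters of MT1X and MT2A are printed because both genes rose. Capitals mark the metal response core (TGCACNC or TGCGCNC, both strands, overlapping matches each counted), to which the zinc sensor MTF1 is known to bind. The MT1X promoter is chr16:56682220-56682469 and that of MT2A chr16:56608334-56608583, both plus strand (RefSeq, GRCh38.p14).
MT1X: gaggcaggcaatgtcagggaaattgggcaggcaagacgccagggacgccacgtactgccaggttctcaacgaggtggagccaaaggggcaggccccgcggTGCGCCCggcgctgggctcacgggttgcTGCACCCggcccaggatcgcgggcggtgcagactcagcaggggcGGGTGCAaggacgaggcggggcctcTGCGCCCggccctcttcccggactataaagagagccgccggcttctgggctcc
MT2A: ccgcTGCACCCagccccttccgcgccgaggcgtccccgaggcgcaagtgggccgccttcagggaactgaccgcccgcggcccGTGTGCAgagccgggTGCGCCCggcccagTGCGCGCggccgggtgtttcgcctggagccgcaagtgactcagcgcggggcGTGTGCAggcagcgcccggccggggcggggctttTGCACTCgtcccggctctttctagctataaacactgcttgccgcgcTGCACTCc
MT1X held 4 matches and MT2A 7, and at least 4 are found in 0.366% of RefSeq promoters of this length. Of 17 tested zinc transporters, another list added after values were seen, 6 fell and 0 rose (4 and 0 without the third JQ1 libraries).

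Among inflammatory and immune genes more fell than rose. Of 28 tested cytokines, chemokines, their receptors and adhesion molecules 14 fell and 0 rose (median log2 -0.65). The falls were 50%, against 17.5% over all genes and 22.6% of protein-coding genes. Without the third JQ1 libraries 10 fell and 0 rose. CSF1, the macrophage growth factor, measured 84.5, 74.1 and 67 CPM under DMSO and 29.4, 31.7 and 30.3 CPM under JQ1 (log2 -1.30 ± 0.15, adjusted p = 1.17e-05). CXCL8, the neutrophil attractant, measured 19.2, 32.8 and 43.3 CPM under DMSO and 11.3, 7.27 and 8.58 CPM under JQ1 (log2 -1.80), and IL11 29.7, 47.4 and 24.9 CPM under DMSO and 13, 11.4 and 12 CPM under JQ1 (log2 -1.49). In all 3 genes the JQ1 libraries lay below the controls. IL7R, a cytokine receptor of lymphocytes, and CXCL5, a chemokine, fell as well (log2 -4.66 and -1.87). Among 18 tested NF-kB pathway genes 5 fell (27.8%, against 22.6% of protein-coding genes) and 1 rose (median log2 -0.12; 3 and 0 without the third JQ1 libraries). NFKB1 measured 62.9, 67 and 76.1 CPM under DMSO and 40.8, 30.9 and 33.9 CPM under JQ1 (log2 -0.96), and TNFAIP3, the feedback deubiquitinase A20, fell by 1.20.

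Many interferon-stimulated genes fell, while the regulator IRF7 rose. Of 47 tested 21 fell and 3 rose (median log2 -0.44), and without the third JQ1 libraries 20 fell and 2 rose. GBP3, a guanylate-binding protein, measured 31.8, 27.8 and 32 CPM under DMSO and 7.45, 4.59 and 5.94 CPM under JQ1 (log2 -2.33 ± 0.18, adjusted p = 2.37e-07), and PARP14, an ADP-ribosyltransferase, 103, 101 and 112 CPM under DMSO and 47.5, 39.6 and 42.2 CPM under JQ1 (log2 -1.29). The antiviral genes IFIT3, OAS1 and MX1 fell (log2 -1.45, -2.16 and -1.81), with OAS1 and MX1 under 3 CPM in every library. IRF7, an inducer of interferon, measured 7.36, 8.67 and 7.71 CPM under DMSO and 46.1, 41.8 and 43.3 CPM under JQ1 (log2 2.46 ± 0.15, adjusted p = 2.96e-08). No JQ1 library overlapped a control in GBP3, PARP14 or IRF7. In antigen presentation by MHC class I, 9 of 22 genes fell and 0 rose (median log2 -0.37; 6 and 0 without the third JQ1 libraries). PSMB8, an immunoproteasome subunit, measured 31, 28.8 and 37.8 CPM under DMSO and 10.2, 5.30 and 6.88 CPM under JQ1 (log2 -2.11), and ERAP1, which trims peptides, fell by 0.85. The apolipoprotein L genes, a list added after their values were seen, fell in 3 of 4 members (median log2 -1.24; 2 without the third JQ1 libraries), led by APOL6 at 64.6, 61.1 and 82.6 CPM under DMSO and 11.3, 8.28 and 10.2 CPM under JQ1 (log2 -2.80). Complement split, with 2 of 13 tested genes up (15.4%, near the 14.6% over all genes) and 5 down. The falls were 38.5%, against 17.5% over all genes and 22.6% of protein-coding genes. The median log2 was -0.64, and without the third JQ1 libraries 2 rose and 2 fell. The central component C3 fell by 0.73, while CLU, the inhibitor clusterin, rose by 1.89 and C5 by 1.56.

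TGF-beta family ligands were among the strongest responders. GDF15 (chromosome 19, 18374731 to 18389176 on GRCh38), a stress-induced hormone that reduces appetite, measured 190.1, 178 and 175 CPM under DMSO and 18.5, 18.5 and 18.6 CPM under JQ1 (log2 -3.29 ± 0.13, adjusted p = 3.37e-10). INHBA, the activin A subunit, measured 206, 206 and 244 CPM under DMSO and 21.4, 17.8 and 16.6 CPM under JQ1 (log2 -3.55 ± 0.24, adjusted p = 5.94e-08). INHBE, an activin subunit of lower level, measured 3.55, 2.28 and 3.11 CPM under DMSO and 0.205, 0.179 and 0.233 CPM under JQ1 (log2 -3.80, resting on a few counts in each JQ1 library), and INHBB fell by 1.16. Every JQ1 library was below every control in these genes. LTBP2, a matrix protein related to the binders of latent TGF-beta, measured 36.3, 33.8 and 38.5 CPM under DMSO and 2.97, 2.86 and 2.02 CPM under JQ1 (log2 -3.79). GDF11 and BMP2 rose, GDF11 at 19.97, 19.8 and 16.5 CPM under DMSO and 50.6, 54.8 and 52.4 CPM under JQ1 (log2 1.49) and BMP2 by 1.04, as did ID1 and ID2, transcriptional targets of BMP signalling, by 1.12 and 1.49. PMEPA1 and TGFBI, induced by TGF-beta, fell (log2 -1.33 and -1.05). SMAD3, the signal-carrying factor, did not pass (log2 0.17). In all, 5 of 40 tested TGF-beta and BMP genes rose and 11 fell. These are 12.5 and 27.5%, against 14.6 and 17.5% over all genes and 15.02 and 22.6% over protein-coding genes. The median log2 of the list was -0.07, and without the third JQ1 libraries 4 rose and 10 fell.

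Matrix genes fell broadly, with 16 of 40 tested members down and 2 up (median log2 -0.50; 9 and 0 without the third JQ1 libraries). FN1, fibronectin, measured 3203, 2690.5 and 3093 CPM under DMSO and 959, 721 and 788 CPM under JQ1 (log2 -1.86), THBS1, thrombospondin, 2570.5, 2311 and 2889.6 CPM under DMSO and 1027, 794 and 878 CPM under JQ1 (log2 -1.53), and LAMB3, a laminin chain of epithelial basement membranes, 383, 387 and 458 CPM under DMSO and 64.2, 54.6 and 61 CPM under JQ1 (log2 -2.77). The groups did not overlap in any of them. MMP14, a membrane-bound collagenase, and SNAI2, a mesenchymal transcription factor, fell as well (log2 -1.07 and -1.31). Of 16 tested integrins 3 rose and 3 fell, 18.75% each and near the 14.6 and 17.5% over all genes. Without the third JQ1 libraries 1 rose and 2 fell. ITGB6, the integrin chain that activates latent TGF-beta, measured 18, 19.6 and 21.5 CPM under DMSO and 1.54, 1.85 and 1.79 CPM under JQ1 (log2 -3.52 ± 0.23, adjusted p = 4.18e-08), while ITGB3 rose by 0.93; ITGB3 shares 51.6% of its exon bases with other annotated genes.

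YAP and TAZ targets moved in both directions, 10 of 28 up and 10 down, 35.7% each against 14.6 and 17.5% over all genes. Their median log2 was -0.04, and without the third JQ1 libraries 5 rose and 9 fell. CCN2, a secreted matricellular protein and the standard readout of YAP, measured 32.7, 47 and 33.7 CPM under DMSO and 265, 328 and 296 CPM under JQ1 (log2 2.97 ± 0.27, adjusted p = 1.12e-06). CCN1 measured 627, 464 and 399.9 CPM under DMSO and 902, 1013 and 939 CPM under JQ1 (log2 0.94) and ANKRD1, a nuclear ankyrin protein, 277, 277 and 325 CPM under DMSO and 602, 383 and 455 CPM under JQ1 (log2 0.71). Every JQ1 library lay above every control in these 3 genes. AXL, a receptor tyrosine kinase also counted among YAP targets, measured 875, 774 and 846 CPM under DMSO and 405, 304 and 347 CPM under JQ1 (log2 -1.24). The coactivators themselves, YAP1 and WWTR1, which encodes TAZ, fell (log2 -0.57 and -0.90), as did TEAD2, one of the factors that bring them to DNA (log2 -1.38).

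The promoters of CCN2 and ANKRD1 are printed because both rose while the genes of their coactivators fell. Capitals mark the TEAD core (GGAATG, both strands). The CCN2 promoter is chr6:131951373-131951622 and that of ANKRD1 chr10:90921088-90921337, both minus strand and written 5′ to 3′ along the gene (RefSeq, GRCh38.p14).
CCN2: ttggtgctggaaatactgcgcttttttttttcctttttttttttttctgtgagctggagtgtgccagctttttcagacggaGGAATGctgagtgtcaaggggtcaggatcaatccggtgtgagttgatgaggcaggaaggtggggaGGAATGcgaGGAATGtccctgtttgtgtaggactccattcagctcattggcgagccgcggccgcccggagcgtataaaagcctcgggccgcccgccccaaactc
ANKRD1: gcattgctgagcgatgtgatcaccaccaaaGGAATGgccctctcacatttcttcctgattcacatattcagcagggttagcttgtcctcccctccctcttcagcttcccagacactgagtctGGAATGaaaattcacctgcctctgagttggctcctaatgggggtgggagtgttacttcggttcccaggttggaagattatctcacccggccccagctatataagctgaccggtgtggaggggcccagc
CCN2 held 3 matches and ANKRD1 2. At least 1 was found in 11.9% of RefSeq promoters of this length and at least 2 in 0.963%. Binding of TEAD factors was not measured here.

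Cytoskeletal genes leaned down, with 12 of 29 tested falling and 2 rising (median log2 -0.18; 11 and 1 without the third JQ1 libraries). CALD1, the actin-binding protein caldesmon, measured 156, 141 and 169.9 CPM under DMSO and 44.8, 38.7 and 36.3 CPM under JQ1 (log2 -1.96 ± 0.14, adjusted p = 7.95e-08). TPM4, a tropomyosin, measured 1192, 957 and 1001 CPM under DMSO and 504, 309 and 377 CPM under JQ1 (log2 -1.40) and CNN1, calponin, fell by 2.24. The JQ1 libraries lay below the controls in each. Among those that rose was TUBB3, a neuronal tubulin, at 3.89, 6.09 and 4.13 CPM under DMSO and 14.8, 31.8 and 24.4 CPM under JQ1 (log2 2.31), which shares 35.8% of its exon bases with other genes. In coagulation and fibrinolysis 9 of 14 genes fell and 1 rose (median log2 -0.68; 7 and 1 without the third JQ1 libraries), and the falls took in activators and inhibitors alike. F3, tissue factor, which starts clotting, measured 124, 114 and 116 CPM under DMSO and 36.9, 29.3 and 32.6 CPM under JQ1 (log2 -1.84 ± 0.12, adjusted p = 4.32e-08). TFPI, its inhibitor, measured 170.2, 140.2 and 128 CPM under DMSO and 37.4, 31.4 and 31.3 CPM under JQ1 (log2 -2.13 ± 0.14, adjusted p = 5.24e-08). THBD, thrombomodulin, and PLAU, urokinase, fell as well (log2 -1.68 and -2.27). ANXA2, a surface receptor for plasminogen, rose by 0.67. No JQ1 library of F3 or TFPI reached a control level.

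Growth factor and receptor genes fell in 13 of 41 cases and rose in 5. These are 31.7 and 12.2%, against 17.5 and 14.6% over all genes and 22.6 and 15.02% over protein-coding genes. The median log2 of the list was -0.08, and without the third JQ1 libraries 10 fell and 3 rose. FGFR3, a fibroblast growth factor receptor, measured 4.70, 5.53 and 5.39 CPM under DMSO and 19.7, 16.3 and 18.1 CPM under JQ1 (log2 1.79), and HBEGF, a ligand of the EGF receptor, rose by 0.72. The growth factor FGF2, the receptor PDGFRB and IRS1, the adaptor of insulin receptors, fell (log2 -0.73, -2.61 and -0.89). Immediate-early factors leaned up, with 9 of 26 AP-1 and early response genes rising and 1 falling (median log2 0.21; 7 and 0 without the third JQ1 libraries). JUN measured 180.02, 201.4 and 205 CPM under DMSO and 326, 343 and 339.9 CPM under JQ1 (log2 0.78), FOS 46.5, 37.9 and 32.9 CPM under DMSO and 101, 100.04 and 101 CPM under JQ1 (log2 1.37) and EGR1 31.6, 36.6 and 19.5 CPM under DMSO and 73.1, 118 and 95.9 CPM under JQ1 (log2 1.71). The 3 JQ1 libraries of FOS were almost equal, those of EGR1 were spread, and both groups stayed apart in all 3 genes. KLF5, a zinc finger factor, measured 7.401, 5.59 and 5.14 CPM under DMSO and 17.1, 13 and 14.3 CPM under JQ1. Among 18 tested feedback genes of the MAPK pathway 3 rose and 3 fell, 16.7% each and near the shares over all genes. Without the third JQ1 libraries 1 rose and 1 fell. The phosphatase DUSP6 rose by 1.36 from about 1 CPM, and DUSP10 fell by 1.55.

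Cell cycle genes moved in both directions. Of 23 tested cyclins and cycle regulators 2 rose and 8 fell (median log2 -0.23; 1 and 5 without the third JQ1 libraries). E2F2, a driver of S phase, measured 16.2, 13.8 and 14.2 CPM under DMSO and 5.02, 6.02 and 4.97 CPM under JQ1 (log2 -1.47), CDKN2D, an inhibitor of CDK4, rose by 1.00 and CDKN1C fell by 1.38. CDKN1A, which encodes the inhibitor p21, measured 133, 119 and 119 CPM under DMSO and 192, 149 and 158 CPM under JQ1 (log2 0.43, adjusted p = 0.0217) and did not pass without the third JQ1 libraries (adjusted p = 0.0773). Its call was also lost without the first JQ1 library (adjusted p = 0.0753), the second DMSO library (adjusted p = 0.0734) or the third (adjusted p = 0.0807). CCND1 did not pass (log2 0.21, adjusted p = 0.639). Of 40 replication genes 6 rose and 4 fell, shares near and below the 14.6 and 17.5% over all genes (median log2 -0.01; 2 and 2 without the third JQ1 libraries). MCM5, a helicase subunit, fell by 1.06 and CLSPN, a checkpoint adaptor, rose by 1.09. For mitosis 4 of 36 genes fell and 0 rose, and for histones 4 of 43 fell and 0 rose, counts below the background share of falls. Without the third JQ1 libraries they were 0 and 1.

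An activator of cell death and a survival gene of the BCL2 family both rose. BCL2L11, the activator BIM, measured 9.25, 9.14 and 6.52 CPM under DMSO and 19.8, 28.8 and 24.2 CPM under JQ1 (log2 1.54), and MCL1, a survival protein, 206, 222 and 215 CPM under DMSO and 372, 370.2 and 373 CPM under JQ1 (log2 0.79). The pore formers BAX and BAK1 fell (log2 -0.59 and -0.60), and BCL2 did not pass (log2 -0.23, adjusted p = 0.211). In both BCL2L11 and MCL1 the JQ1 libraries lay above the controls. Of 21 tested 3 rose (14.3%, near the 14.6% over all genes) and 8 fell. The falls were 38.1%, against 17.5% over all genes and 22.6% of protein-coding genes. The median log2 of the 21 was -0.33, and without the third JQ1 libraries 2 rose and 5 fell. The death receptor FAS fell (log2 -0.98), while the stress sensor GADD45A rose (log2 1.02).

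Falls were called in 13 of 35 tested renal lineage and tubule genes and rises in 3, while 19 were not called (median log2 -0.32; 10 and 0 without the third JQ1 libraries). ABCC2, an apical export pump of the proximal tubule, measured 31, 29.7 and 31.5 CPM under DMSO and 4.37, 2.74 and 3.46 CPM under JQ1 (log2 -3.10 ± 0.15, adjusted p = 2.67e-09). HNF4G, a nuclear receptor of the proximal tubule, measured 18.5, 15.1 and 18.9 CPM under DMSO and 4.51, 2.80 and 3.42 CPM under JQ1 (log2 -2.27), and CDH16, the kidney-specific cadherin, 14, 11.3 and 10.2 CPM under DMSO and 3.25, 3.69 and 2.99 CPM under JQ1 (log2 -1.84). The groups stayed apart in all 3 genes. HAVCR1, the injury marker KIM-1, the keratin KRT7 and LHX1, a kidney developmental factor at 2.27 CPM or less, fell too (log2 -1.27, -1.92 and -2.86). The lineage factor PAX8 went the other way, at 350.02, 321 and 238 CPM under DMSO and 421, 560.00 and 489 CPM under JQ1 (log2 0.69, adjusted p = 0.0155). This was lost without the third JQ1 libraries (adjusted p = 0.0652), without the second JQ1 library (adjusted p = 0.0545) or without the third DMSO library (adjusted p = 0.0941).

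Of 30 tested ATF4 and unfolded protein response genes 9 fell (30.0%) and 1 rose (median log2 -0.32). With the third JQ1 libraries left out 3 fell and 1 rose, a share of falls near the 10.3% over all genes in that fit. XBP1, a transcription factor of that response, measured 65.1, 50.9 and 62.3 CPM under DMSO and 34.7, 19.1 and 24.5 CPM under JQ1 (log2 -1.18), while ERN1, the kinase and nuclease that splices its RNA, rose by 1.04. Of 18 tested heat shock proteins 2 rose and 4 fell (22.2%, against 22.6% of protein-coding genes; 1 and 2 without the third JQ1 libraries). The small heat shock protein CRYAB measured 28.1, 13 and 9.56 CPM under DMSO and 3.04, 2.50 and 2.41 CPM under JQ1 (log2 -2.66), and HSPB8 fell by 1.33. Among 36 lysosome and autophagy genes 4 rose and 4 fell, 11.1% each and below the 14.6 and 17.5% over all genes. Their median log2 was -0.14, and without the third JQ1 libraries 2 rose and 1 fell. TFEB, the factor that drives lysosome genes, fell by 1.27, and the autophagy genes SQSTM1 and ULK1 rose by 0.81 and 1.09.

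Ribosomal protein and respiratory chain genes moved with single libraries. Of 76 ribosomal protein genes 17 fell (22.4%, against 22.6% of protein-coding genes) and 0 rose (median log2 -0.38). Without the third JQ1 libraries 1 fell and 0 rose, while the median was -0.35. Their summed level was 23470, 17890 and 18965 CPM under DMSO and 21303, 11116 and 15475 CPM under JQ1, so the first JQ1 library lay within the controls and the second far below. Respiratory chain genes fell in 15 of 52 cases and rose in 1 (median log2 -0.34; 8 and 0 without the third JQ1 libraries). Their sum was 3788, 3297 and 3802 CPM under DMSO and 3681, 2096 and 2777 CPM under JQ1. The complex I genes NDUFA9 and NDUFB7 fell (log2 -1.07 and -0.93), and their groups did not overlap. The part of library quality in these sums was not tested.

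Nuclear noncoding RNAs were among the most abundant that rose. NEAT1, the scaffold of paraspeckles, measured 749, 2818 and 1621 CPM under DMSO and 4771, 16879.7 and 11412 CPM under JQ1 (log2 2.67 ± 0.49, adjusted p = 0.000645), and MALAT1, a nuclear speckle RNA, 2468, 4296 and 2833 CPM under DMSO and 10818, 20083 and 15509 CPM under JQ1 (log2 2.27 ± 0.35, adjusted p = 0.000151). The second library was highest and the first lowest within each group for both. This order was the reverse of that of the ribosomal protein sum in both groups, and its part in the changes was not tested. MIR210HG, the host of a hypoxia-induced microRNA, rose by 1.13, UCA1 by 1.16 and the snoRNA host SNHG12 by 0.87, while CYTOR fell by 0.88. Of 30 listed long noncoding RNAs 9 rose and 5 fell (median log2 0.12; 6 and 3 without the third JQ1 libraries). Of 17 clock genes 3 rose and 2 fell, 17.6 and 11.8% against 14.6 and 17.5% over all genes (2 and 2 without the third JQ1 libraries). RORA and CRY2 rose by 0.91 and 0.62, and HLF fell by 1.56.

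**Figure D4:**
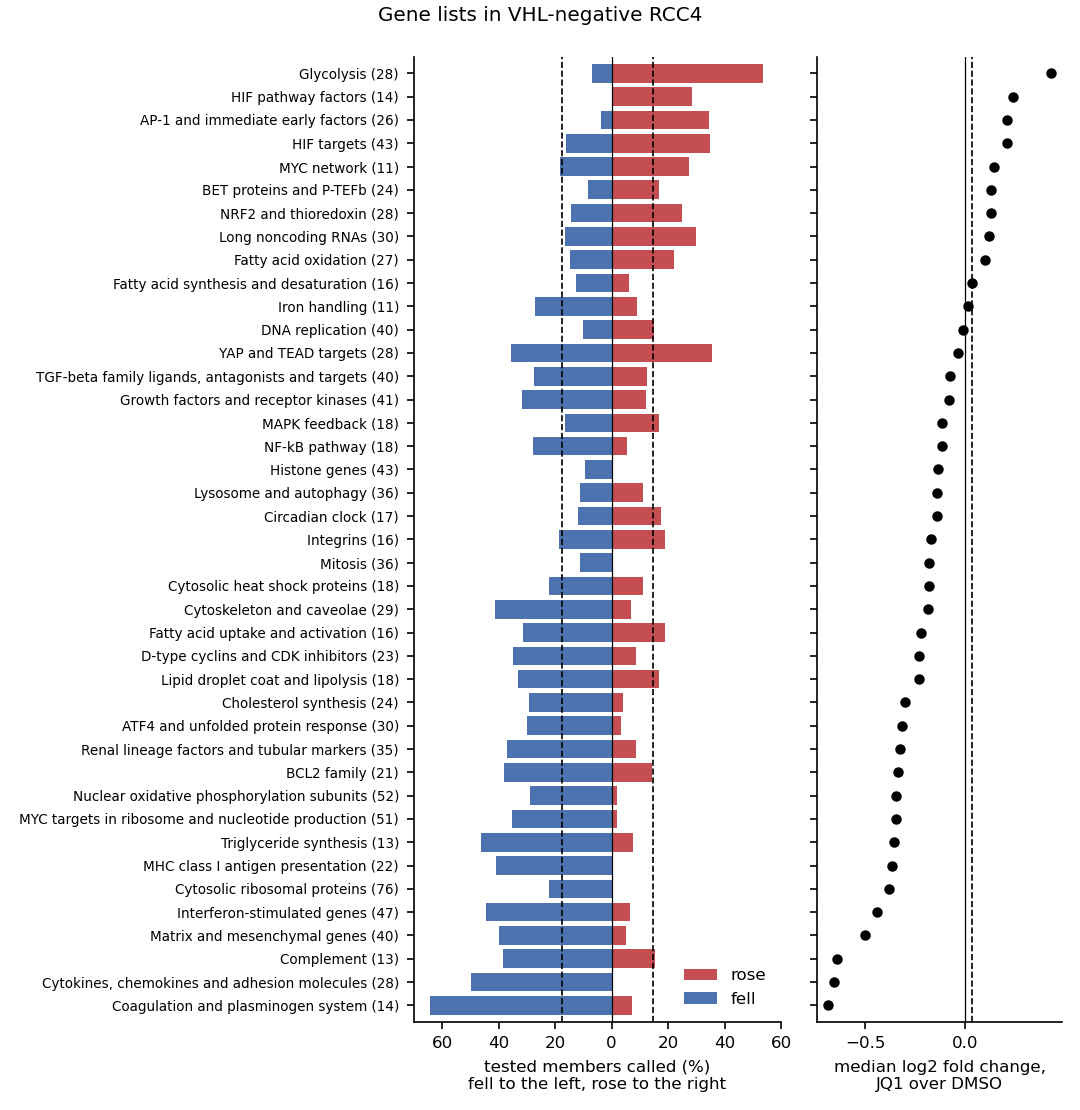
Gene lists of at least 10 tested genes are drawn (number in brackets), with lists added after seeing the data and a further list left out. The left panel gives the percentage of members called as risen (right) or fallen (left), and the right panel the median log2 fold change. Dashed lines mark all genes tested, with 14.6% risen, 17.5% fallen and a median of 0.03, and glycolysis stands at the top of the lists drawn with a median of 0.43.

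How far this response was shared with VHL-positive cells was then asked. There 3167 genes rose (15.3%) and 3422 fell (16.5%). Genes that rose in both lines numbered 1550, 51.1% of those in VHL-negative and 48.9% of those in VHL-positive cells, and genes that fell in both 2012 (55.6 and 58.8%). Changes in opposite directions were called in 45 genes. The test of the difference itself called 250 genes (1.21%), 103 with a higher change in VHL-negative cells (0.497%) and 147 with a lower one (0.71%). Without the third JQ1 libraries it called 25. Leaving out 1 VHL-negative library moved the count to 147, 165 and 124 without the first, the second and the third DMSO library, and to 3510, 103 and 43 without the first, the second and the third JQ1 library. Of the 250, 111 were lower and fell in VHL-negative cells, and 61 were higher and rose there.

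HILPDA and PFKFB3 were among the genes with a higher change in VHL-negative cells. HILPDA measured 6.43, 6.45 and 5.96 CPM under DMSO and 8.01, 8.18 and 7.58 CPM under JQ1 in VHL-positive cells, and the change was higher in VHL-negative cells by log2 2.01 (adjusted p = 6.6e-05). PFKFB3 measured 246, 204 and 275 CPM under DMSO and 153, 162 and 152 CPM under JQ1 there, a fall where VHL-negative cells showed a rise (difference log2 1.57, adjusted p = 0.000872). VGF differed by log2 2.13 (adjusted p = 0.000338) and CBX5, which fell in VHL-positive cells (log2 -0.61), by 1.70 (adjusted p = 0.00195). MT1X and BAHCC1 differed by log2 2.79 and 1.96 (adjusted p = 0.00597 and 0.00931), but not without the third JQ1 libraries (adjusted p = 0.0734 and 0.101).

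GDF15 and CALD1 were among the genes with a larger fall in VHL-negative cells. GDF15 measured 181, 191 and 176 CPM under DMSO and 119, 143 and 119 CPM under JQ1 in VHL-positive cells, a fall of a smaller size (difference log2 -2.76, adjusted p = 3.44e-07). CALD1 measured 219, 248 and 189.7 CPM under DMSO and 192, 188 and 181 CPM under JQ1 there (difference log2 -1.74, adjusted p = 0.000338). CP, CRISPLD2, F3 and MMP14 differed by log2 -1.67, -1.61, -1.33 and -1.31. The differences of HILPDA, PFKFB3, VGF, CBX5, GDF15, CALD1, CP, CRISPLD2, F3 and MMP14 passed in every alternative that gave a value for them. CA9 stayed at or below 0.946 CPM in all VHL-positive libraries, so its difference of log2 -3.73 (adjusted p = 0.0179) rests on a few counts there, and it did not pass with limma-voom (adjusted p = 0.165) or without the third VHL-negative JQ1 library (adjusted p = 0.055). TM4SF18, INHBA, TXNIP and HEXIM1 showed no called difference (adjusted p = 0.142, 0.286, 0.615 and 0.587).

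Gene lists also differed in their counts, and no list was tested as a whole for a difference. In VHL-positive cells 10 of 24 cholesterol synthesis genes rose and 0 fell (median log2 0.32), against 1 and 7 in VHL-negative cells. Of 40 replication genes 1 rose and 18 fell there, against 6 and 4. Of 36 lysosome and autophagy genes 16 rose and 3 fell there, against 4 and 4. The test of the difference gene by gene called 2 of the 24, 2 of the 40 and 0 of the 36, against 1.21% of all genes. Unequal counts of calls are thus not a called difference for most members. Each line was compared with its own DMSO libraries.

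**Figure D5:**
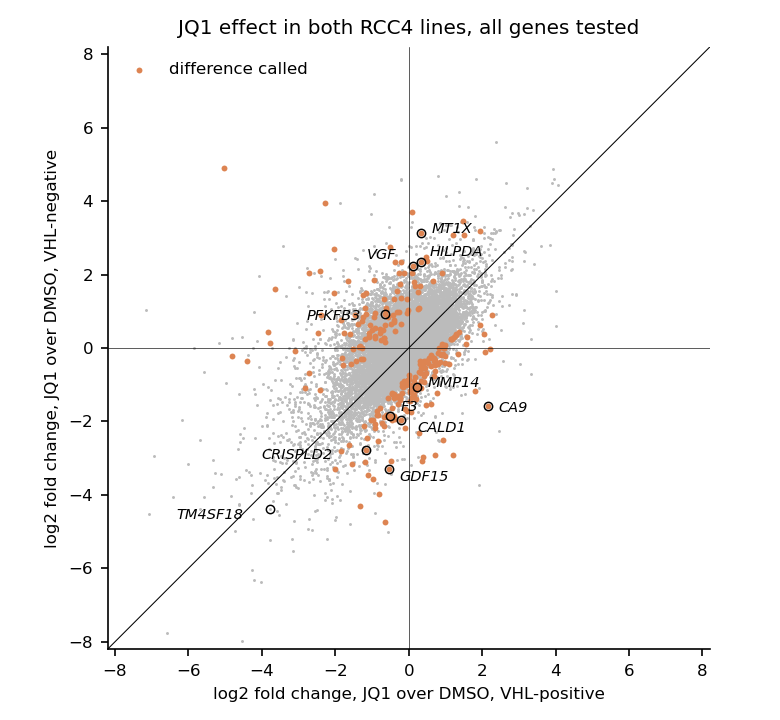
Each point is 1 of 20714 tested genes, with the log2 fold change of JQ1 over DMSO in VHL-positive cells on the horizontal and in VHL-negative cells on the vertical axis, the diagonal marking equal changes. Larger points are the 250 genes with a called difference, of which HILPDA lies above and GDF15 below the diagonal, while TM4SF18 lies near it.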

How the data were processed

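Libraries of total RNA depleted of ribosomal RNA were sequenced on a NextSeq instrument, per the labels' protocols. The deposited matrix gives raw read counts for 60663 Ensembl gene IDs. STAR (2.7.8), featureCounts of Subread (2.0.3), the build GRCh38 and DESeq2 (1.30.1) are named in the submitters' processing notes, with no order or role, and no source used here gives a strand setting. The authors' deposited table of JQ1 against DMSO gives log2 fold changes and their standard errors, a test statistic (a score), p-values and adjusted p-values, and a mean count over size factors, a unit of another kind (other). By the authors' deposited table, rises numbered 2704 and falls 3800, of which 2635 and 3519 were also called here in the same direction and 0 in the opposite one.

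Analysis of the counts used edgeR 4.0.16 under R 4.3.3. Library sizes were scaled by TMM, and edgeR's filter by group kept 20714 genes with 99.87% of counts. A quasi-likelihood model with 1 mean for each of 4 groups was fitted to all 12 libraries, with 3 libraries a group. Contrasts were JQ1 against DMSO within each line and the difference between these effects, called at a Benjamini-Hochberg adjusted p under 0.05 over all genes tested. CPM are on TMM-scaled sizes, and means of log2 CPM used a prior count of 2. SE is that of the log2 change. When the model was tested on simulated data, 4-fold, 2-fold and 1.5-fold changes in VHL-negative cells were recovered in 100%, 86.6% and 17.9% of 67 genes each, with 12 false calls among 19909 genes. Only these genes were changed there, against 32.1% called in the data, and every library was drawn independently. Rates in the real data may therefore differ. Symbols and exon overlap came from GENCODE release 29.

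The members and lists were chosen with earlier results of these data known. Genes named were VHL, MYC, HILPDA, BRD2, BRD3 and HEXIM1, the 12 largest rises and falls without overlap between the groups at a mean of at least 4 log2 CPM, the 4 members of each list with the smallest p, other list members, and the 6 largest differences between lines in each direction. Some genes this rule names are not reported here. Alternatives were other size factors, filters and thresholds, DESeq2 1.42.0, limma-voom (limma 3.58.1), a replicate block, only the VHL-negative libraries, protein-coding genes only, removal of mitochondrial and structural RNA genes, and leaving out each library. The fit without the third JQ1 libraries, the lists of metallothioneins, apolipoprotein L genes and zinc transporters, and the check for mixed libraries were added after seeing the data. That check used genes with at least 300 counts over the group.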

Additional observations from a re-analysis of the deposited data

Results flagged for a closer look

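For 27 genes named above the test of the difference itself found unequal JQ1 effects in VHL-negative and VHL-positive cells (edgeR, quasi-likelihood, Benjamini-Hochberg adjusted). Values are the log2 change in VHL-negative minus that in VHL-positive cells. Changes were higher in VHL-negative cells for MT1X (2.79), VGF (2.13), HILPDA (2.01), BAHCC1 (1.96), CBX5 (1.70), FGFR3 (1.64), PFKFB3 (1.57), VEGFA (1.505) and RORA (1.33). They were lower for CA9 (-3.73), INHBB (-2.97), GDF15 (-2.76), CALD1 (-1.74), CP (-1.67), CRISPLD2 (-1.61), CDKN1C (-1.59), KRT7 (-1.54), TXNRD1 (-1.37), F3 (-1.33), MMP14 (-1.31), VHL (-1.29), FN1 (-1.19), PMEPA1 (-1.08), STEAP3 (-1.01), CDKN1A (-0.95), APOL6 (-0.95) and AXL (-0.83). Without the third JQ1 libraries the difference no longer passed for MT1X, BAHCC1, FGFR3, VEGFA, RORA, CDKN1C, KRT7, TXNRD1, VHL, FN1, PMEPA1, STEAP3, CDKN1A, APOL6 and AXL (adjusted p from 0.0694 for VHL to 0.3 for AXL). INHBB, like CA9, was close to absent in VHL-positive cells, at up to 0.400 CPM. Leaving out single VHL-negative libraries also ended the call of the difference for INHBB and CA9 (without the third JQ1 library, adjusted p = 0.0508 and 0.055). The same held for VEGFA, RORA and PMEPA1 without the third JQ1 library, and for TXNRD1, STEAP3, APOL6, FN1, AXL, FGFR3, CDKN1C, CDKN1A and KRT7 without the third JQ1 library or any of several others (adjusted p of these 9 from 0.0501 for CDKN1A to 0.162 for AXL). With the replicate number as a block in the 12-library fit the differences of AXL and KRT7 were not called (adjusted p = 0.0569 and 0.0554). Nor were those of CA9, FGFR3, CDKN1C, KRT7 and RORA with limma-voom (adjusted p = 0.165, 0.0581, 0.0566, 0.0567 and 0.0575), or those of TXNRD1, APOL6, AXL, CDKN1C and KRT7 with total counts alone (adjusted p from 0.0561 to 0.0747).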

How the results depend on the processing

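Counts of genes that rose and fell stayed within 1.5 times of 3032 and 3617 in all but the following settings. An adjusted p under 0.01 gave 1631 and 2408, and leaving out the third JQ1 libraries, added after seeing the data, gave 1725 and 2232. Leaving out 1 VHL-negative library gave 2054 to 3673 rises and 2582 to 4433 falls. The count of differences between lines was less stable than either. It was 250 as reported, 1336 without a filter on low counts, 1188 with DESeq2, 47 at an adjusted p under 0.01 and 25 without the third JQ1 libraries. Leaving out 1 VHL-negative library gave 43 (without the third JQ1 library) to 3510 (without the first JQ1 library). Whether the replicate numbers pair the samples was not settled. Deviations of same-numbered VHL-negative libraries correlated at 0.274, 0.335 and 0.009, and those of libraries with different numbers at -0.381 to 0.106. The third JQ1 library lay between the others, so its correlation says little, and the labels tie no number to a shared culture or day. With the replicate number as a block in the 12-library fit 2995 genes rose, 3617 fell and 272 differed between lines, and in the fit of the 6 VHL-negative libraries 3380 rose and 4085 fell. The median of the MYC network was -0.15 without the first, -0.02 without the second and 0.18 without the third JQ1 library, and that of growth factors was 0.0132 with protein-coding genes only. Of 169 called genes named, 0 changed direction in any alternative. The causes were not tested.

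Precision was limited by 3 libraries a group and by the third JQ1 library, which adds little independent spread if it is a mixture. Simulated 1.5-fold changes were mostly missed, so genes that did not pass may still have changed. No spike-ins were used here, and changes in total RNA per cell were not measured.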
